A study of Mus musculus with 9 samples.

Results

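Tetraspanins are small membrane proteins that cross the membrane several times and hold receptors, integrins and proteases together in patches of the cell surface. The 29 mouse tetraspanin genes described here were chosen by name among the 46078 genes of the deposited count table, as Tspan followed by digits alone or as Cd9, Cd37, Cd53, Cd63, Cd81, Cd82, Cd151, Upk1a or Upk1b. RNA-seq had been made of bone marrow (BM) endothelial cells (ECs) that were sorted as CD45-Ter119-CD31+ from B6 mice of wild type (wt) genotype, with no treatment named. Sca-1+ ECs (Sca-1high in the study) gave 4 libraries, numbered 7, 13, 15 and 19 at the end of their labels. Another 5, numbered 8, 10, 14, 16 and 22, came from Sca-1- cells of the same sort (Sca-1low), which the labels also call endothelial. The titles further carry the word CD452 in Sca-1+ library 13 and in Sca-1- libraries 10 (in a shortened form), 14 and 22, and wt in Sca-1+ libraries 15 and 19 and Sca-1- libraries 8 and 16, while that of library 7 has neither. Values per library follow these orders throughout. The study took the Sca-1high cells for the lining of arterioles and the Sca-1low cells for that of sinusoids, and the comparison asks how the RNA of the 2 fractions differs. The labels give neither the age of the mice nor the mouse behind every library, so that the p-values measure the spread between these libraries, which may in part be technical.

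Most tetraspanins work through partners. CD9 and CD81 bind integrins and the immunoglobulin proteins EWI-2 and EWI-F, CD151 binds the laminin-binding integrins, and the TspanC8 group (TSPAN5, 10, 14, 15, 17 and 33) carries the protease ADAM10 to the cell surface and steers which proteins it cuts. In the vessel wall TSPAN12 is a partner of the receptor Frizzled 4 and TSPAN18 of the calcium channel ORAI1. On blood cells CD37, CD53 and TSPAN32 mark leukocytes or platelets, and CD9 and TSPAN9 are abundant on platelets.

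The Sca-1+ and Sca-1- fractions differed in most of these genes and in both directions. Of the 25 tetraspanins that passed edgeR's filter on low counts, 10 lay above in Sca-1+ ECs and 9 below, where 44.8% of all 15937 genes tested were called, 23.3% above and 21.4% below. Tspan7, Tspan15 and Tspan12 were the farthest above, by 54.1-fold, 41.4-fold and 17.7-fold, and Tspan32, Cd53 and Cd37 the farthest below, by 186-fold, 42.2-fold and 39.7-fold. Cd81 led the family in Sca-1+ ECs and Cd9 in the Sca-1- fraction.

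To show what precedes these genes in the genome, the 250 bases upstream of the RefSeq start site are printed for the genes farthest apart in either direction whose window lay outside the gene as annotated, on the gene's strand and from the RefSeq promoter table on build GRCm38.p6. Tspan7 is on the plus strand of the X chromosome (chrX:10484866-10485115), Tspan12 on the minus strand of chromosome 6 (chr6:21852534-21852783), Tspan32 on the plus strand of chromosome 7 (chr7:143004796-143005045) and Cd53 on the minus strand of chromosome 3 (chr3:106790150-106790399). Capitals mark matches on either strand to 5 short motifs, spelled out after the sequences, which could overlap each other.
Tspan7: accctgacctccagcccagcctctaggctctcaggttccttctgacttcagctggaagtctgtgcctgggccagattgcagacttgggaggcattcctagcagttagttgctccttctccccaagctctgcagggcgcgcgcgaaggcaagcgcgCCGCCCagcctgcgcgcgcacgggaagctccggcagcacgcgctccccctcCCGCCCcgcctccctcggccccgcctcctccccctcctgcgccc
Tspan12: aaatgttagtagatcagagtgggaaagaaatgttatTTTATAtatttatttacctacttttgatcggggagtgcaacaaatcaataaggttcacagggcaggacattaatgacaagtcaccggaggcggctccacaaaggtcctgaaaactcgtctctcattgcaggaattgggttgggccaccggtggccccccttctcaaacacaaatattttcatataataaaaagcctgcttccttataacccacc
Tspan32: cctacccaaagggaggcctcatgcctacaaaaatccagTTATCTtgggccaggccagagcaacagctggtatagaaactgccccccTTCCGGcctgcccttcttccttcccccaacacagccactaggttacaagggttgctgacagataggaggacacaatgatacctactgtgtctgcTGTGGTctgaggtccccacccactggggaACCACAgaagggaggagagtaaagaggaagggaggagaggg
Cd53: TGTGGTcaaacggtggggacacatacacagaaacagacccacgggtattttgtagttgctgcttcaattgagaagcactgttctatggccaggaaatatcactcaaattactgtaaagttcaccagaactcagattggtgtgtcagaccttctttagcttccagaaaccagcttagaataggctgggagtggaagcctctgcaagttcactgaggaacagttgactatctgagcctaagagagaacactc
Tspan7 holds 2 GC box matches among 19 CG dinucleotides. Tspan12 holds 1 match to the TATA box letters, on the opposite strand and far from the start site, and 5 CG dinucleotides. Tspan32 holds 1 GATA, 1 ETS and 2 RUNX matches with 1 CG dinucleotide, and Cd53 1 RUNX match with 2. Of the family, 27 genes were matched by symbol to such a window (not Tspan18 and Upk1b). The RUNX motif, searched as TGTGGT, was in 3 of the 9 genes lower in Sca-1+ ECs (Tspan2, Cd53, Tspan32), in 1 of the 10 higher genes (Tspan3) and in 14% of all 32851 promoters. The core of the ETS motif, searched as CCGGAA, was in 4 of the 9 lower genes (Tspan2, Cd9, Cd37, Tspan32), in 1 of the 10 higher genes (Tspan6) and in 12% of all promoters. The motif of GATA factors, searched as AGATAA, was in Tspan32 and Tspan1 and in 9.99% of all promoters. The letters of the TATA box, searched as TATAAA on either strand and at any place in the window, were in Tspan12 and in 12.4% of all promoters. The GC box, searched as GGGCGG, was in 5 of the 10 higher and 6 of the 9 lower genes and in 32.7% of all promoters. The median number of CG dinucleotides was 17.5 in the higher genes, 13 in the lower genes and 6 in all promoters. These matches are a description of letters, and nothing measured here bears on whether a factor binds them.

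The sort was checked first, since it decides what the tetraspanin values stand for. Ly6a, which encodes Sca-1, lay between 874 and 1310 CPM (counts per 1000000 counts of a library size adjusted by edgeR's TMM factor) in Sca-1+ libraries and between 0.24 and 1.49 CPM in Sca-1- libraries. Pecam1, which encodes CD31, was at 1140 to 1760 and 334 to 1700 CPM and was not called (edgeR, adjusted p = 0.25). Ptprc, which encodes CD45, was at 0 to 2.56 CPM in Sca-1+ and 17.2 to 47.8 CPM in Sca-1- libraries (adjusted p = 0.0069). Counts per library were 23058385 to 24657204 in the Sca-1+ and 21581653 to 25959818 in the Sca-1- fraction, with TMM factors of 1.12 to 1.22 and of 0.581 to 1.16. All 17 general endothelial markers were higher in Sca-1+ ECs, and their summed level was 13200 to 17200 CPM there and 356 to 863 CPM in Sca-1- cells. Markers of sinusoidal ECs were also lower in Sca-1- cells, with Stab2 at 3.21 to 41.0 CPM against 137 to 385 CPM. All 17 megakaryocyte markers went the other way, with a sum of 46.8 to 97.7 CPM in Sca-1+ and 27500 to 119000 CPM in Sca-1- cells. The Sca-1- libraries therefore go against the label of endothelial cells in these markers, and are called by their gate alone. In RNA of sorted bulk cells, fewer cells of a type and less RNA per cell cannot be told apart.

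Other blood cell and vessel wall markers also moved with the fractions or stood out in single libraries. Summed arterial markers were at 810 to 1070 CPM in Sca-1+ and 9.08 to 37.3 CPM in Sca-1- cells (8 of 8 higher), sinusoidal markers at 261 to 644 and 9.43 to 84.5 CPM (3 of 3 higher), and smooth muscle and pericyte markers at 214 to 1440 and 18.5 to 59.7 CPM (6 of 9 higher). Leukocyte markers summed to 6.11 to 75.3 CPM in Sca-1+ and 1980 to 3890 CPM in Sca-1- cells (11 of 12 lower in Sca-1+), erythroid markers to 107 to 238 and 689 to 2430 CPM (8 of 12 lower), and stromal markers to 221 to 948 and 3020 to 41600 CPM (1 of 6 higher and 2 lower). Basophil and mast cell markers (6 of 6 lower) summed to 13100 CPM in Sca-1- library 16 and 83.9 to 1830 CPM in the other Sca-1- libraries, against 6.39 to 82.4 CPM in Sca-1+ libraries. Sca-1+ library 19 held the most neutrophil marker RNA of its fraction, 793 CPM against 9.29 to 59.4 CPM (144 to 798 CPM in Sca-1-; 2 of 11 lower), and the most B and plasma cell marker RNA, 47.0 CPM against 1.7 to 1.94 CPM (12.4 to 267 CPM in Sca-1-; 4 of 5 tested lower). The part of these other cells in the tetraspanin values was not tested, and the counts below are also given without libraries 19, 10 and 16.

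Calls were made by edgeR's quasi-likelihood test, its p-values adjusted after Benjamini and Hochberg across every tested gene. Against the shares of 23.3% and 21.4% over all genes, 40% of the tested tetraspanins (10 of 25) were higher and 36% (9 of 25) lower in Sca-1+ ECs. The 2 fractions did not overlap in any library for the 10 higher genes and for 5 of the lower ones (Tspan32, Cd53, Cd37, Tspan33 and Cd9), where 24.8% and 18.8% of all genes tested showed such a gap. The median log2 fold change of the tested members was 0.18, beside 0.07 over all genes, and its median size regardless of direction was 1.88, beside 1.02. Among all calls 52.1% were higher with TMM scaling and 63.1% with library size alone. With the Sca-1+ library 19 and the Sca-1- libraries 10 and 16 left out together, 11 members were higher (Cd82 was added) and 8 lower (Tspan9 was lost). With the title words CD452 and wt as a term, over the 8 libraries that carry one, 10 were higher and 5 lower (Tspan14, Tspan17, Tspan2 and Tspan9 were lost). The plot of levels by library shows every tested member.

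**Figure D1:**
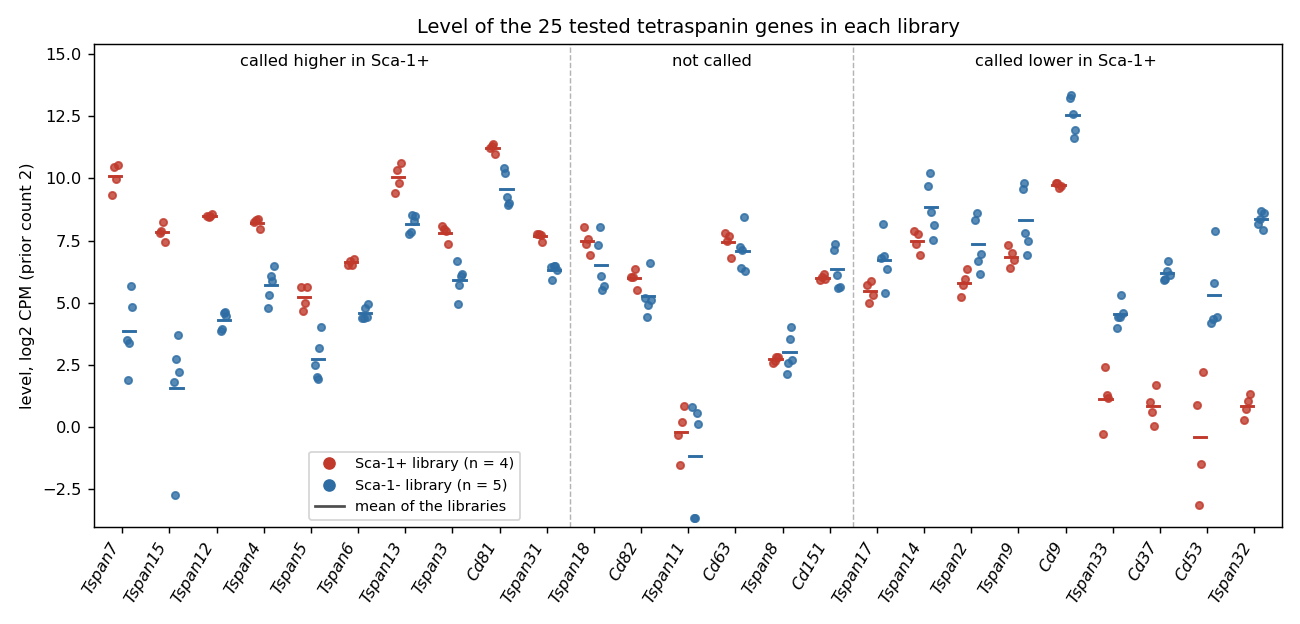
Level of the 25 tested tetraspanins in each library, as log2 CPM with a prior count of 2 (vertical axis), with genes along the horizontal axis ordered by fold change. Red points are the 4 Sca-1+ and blue points the 5 Sca-1- libraries, short lines are means, and dashed lines separate the 10 genes called higher, the 6 not called and the 9 called lower in Sca-1+ ECs; Tspan32, Cd37, Cd53 and Tspan33 sit far below their Sca-1- points, and Tspan7, Tspan15 and Tspan12 far above.

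Which tetraspanin dominated changed with the fraction. Compared per kb of exon, so that genes of different length can be set side by side, Cd81 took 32.3% ± 3.78 (SD, n = 4) of the summed tetraspanin level in Sca-1+ ECs, followed by Tspan13 at 17.3% ± 5.86 and Cd9 at 16% ± 1.4 (SD, n = 4). In Sca-1- libraries Cd9 alone took 62.5% to 76.2% of the sum, and Cd81 5.39% to 7.74%. Cd9 and the next gene together made up 69.5% to 83.9% of the sum in Sca-1- libraries, while the 2 leading genes made up 50.3% to 52.4% in Sca-1+ libraries. Tspan7, Tspan4 and Tspan12 each held 3.79% or more of the Sca-1+ sum in every library. In Sca-1- libraries Tspan7 held at most 0.3%, Tspan12 at most 0.311% and Tspan4 at most 1.49%. Summed without regard to length, all 29 genes made up 0.881% to 1.03% of the counts in Sca-1+ and 0.680% to 0.956% in Sca-1- libraries. On the TMM scale that sum was 7240 to 8480 CPM and 5860 to 15700 CPM, and without Cd9 it was 6350 to 7590 CPM and 2620 to 5360 CPM, so that the fractions overlapped with Cd9 and did not overlap without it.

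**Figure D2:**
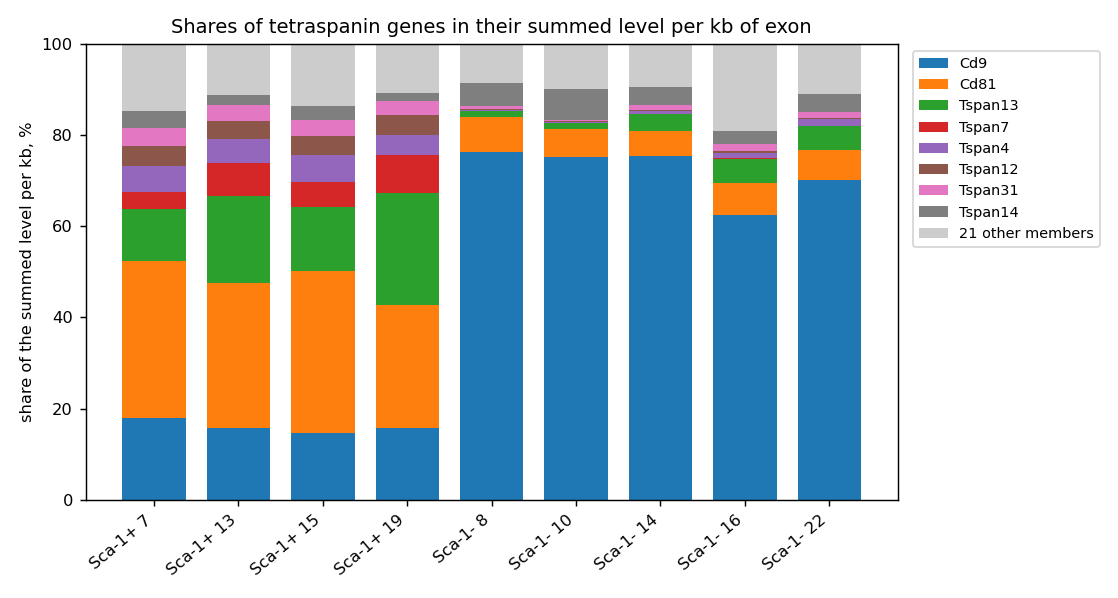
Share of each tetraspanin in the summed level per kb of exon, in percent (vertical axis), one bar for each of the 9 libraries (horizontal axis). Cd9 fills 62.5% to 76.2% of the Sca-1- bars and 14.6% to 18.0% of the Sca-1+ bars, where Cd81, Tspan13, Tspan7, Tspan4 and Tspan12 take larger shares.

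Among the partners of integrins and immunoglobulin proteins, Cd9 and Cd81 moved in opposite directions and Cd151 and Cd82 were not called. Cd9 (ENSMUSG00000030342, chromosome 6 from 125460266 to 125494791 in GENCODE M21 on GRCm38), whose protein is abundant on platelets and megakaryocytes, was counted at 893, 896, 783 and 829 CPM in Sca-1+ libraries and at 9520, 10400, 6150, 3120 and 3970 CPM in Sca-1- libraries. Every Sca-1- library was above every Sca-1+ library, and the Sca-1+ values hardly varied. The log2 fold change of Sca-1+ over Sca-1- was -2.96 with a standard error (SE) of 0.44 (edgeR, adjusted p = 0.00045). Cd9 shares 218 of its 2044 exon bases with Gm26728 on the opposite strand, which was at 12.7 to 15.1 and 31.1 to 180 CPM, and the use of strand in counting is not given in the sources used here.

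Cd81 (ENSMUSG00000037706), whose protein is found on most cells, was at 2400, 2540, 2690 and 2010 CPM in Sca-1+ libraries. In Sca-1- libraries it was at 1360, 1200, 618, 495 and 524 CPM. All Sca-1+ values were above all Sca-1- values, and libraries 8 and 10 were the highest of the Sca-1- fraction. This gave a log2 fold change of 1.52 (SE 0.36, adjusted p = 0.0067). Cd151, the partner of integrins alpha-3 and alpha-6, was at 60.1 to 70.8 CPM in Sca-1+ and at 140, 167, 69.8, 48.4 and 49.7 CPM in Sca-1- libraries. Its log2 fold change of -0.56 (SE 0.39, adjusted p = 0.27) turned to 0.04 with library size alone as the scaling. Cd82, a suppressor of metastasis in tumour cells, was at 45.3 to 81.9 CPM in Sca-1+ libraries and at 36.6, 21.7, 30.2, 97.3 and 34.6 CPM in Sca-1- libraries. Library 16 alone was above the Sca-1+ fraction, and the log2 fold change of 0.54 (SE 0.41, adjusted p = 0.31) became 1.05 (adjusted p = 0.008) without it.

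Genes of the partners of these proteins were spread over both directions. Itga3 and Itga7, integrin chains bound by CD151, had log2 fold changes of 4.30 and 3.76 (adjusted p = 7.5e-05 and 0.0028), and Itga6 had -3.54 (adjusted p = 0.0016). Their common beta chain Itgb1 was at 424 to 974 CPM in Sca-1+ and 779 to 2780 CPM in Sca-1- libraries (adjusted p = 0.052; 0.023 to 0.14 with each library left out in turn). Igsf8, which encodes EWI-2, was at 16.4 to 29.9 and 6.79 to 19.2 CPM (adjusted p = 0.078), and Ptgfrn, which encodes EWI-F, stayed at or under 1.51 CPM in every library. The interferon-induced Ifitm3, which also binds CD81, was higher in Sca-1+ ECs by 2.10 on the log2 scale (adjusted p = 0.00015). Ackr1, the chemokine-binding receptor on venular ECs that meets CD82 of other cells, was at 322 to 855 CPM in Sca-1+ and 5.53 to 31.2 CPM in Sca-1- libraries.

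The TspanC8 genes differed in which member stood beside Tspan14. In both fractions Tspan14 (ENSMUSG00000037824) was the highest of the group per kb of exon, with 46.5% to 57.2% of the group's sum in Sca-1+ and 65.3% to 81.2% in Sca-1- libraries. Tspan15 (ENSMUSG00000037031, chromosome 10 from 62185396 to 62231251) took 17.8% to 25.2% of that sum in Sca-1+ libraries and at most 1.51% in Sca-1- libraries, whereas Tspan17 took 16.8% to 24.5% and 17.7% to 31.2%. Tspan33 reached 7.19% in Sca-1- library 16 and stayed at or under 0.894% in every Sca-1+ library.

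**Figure D3:**
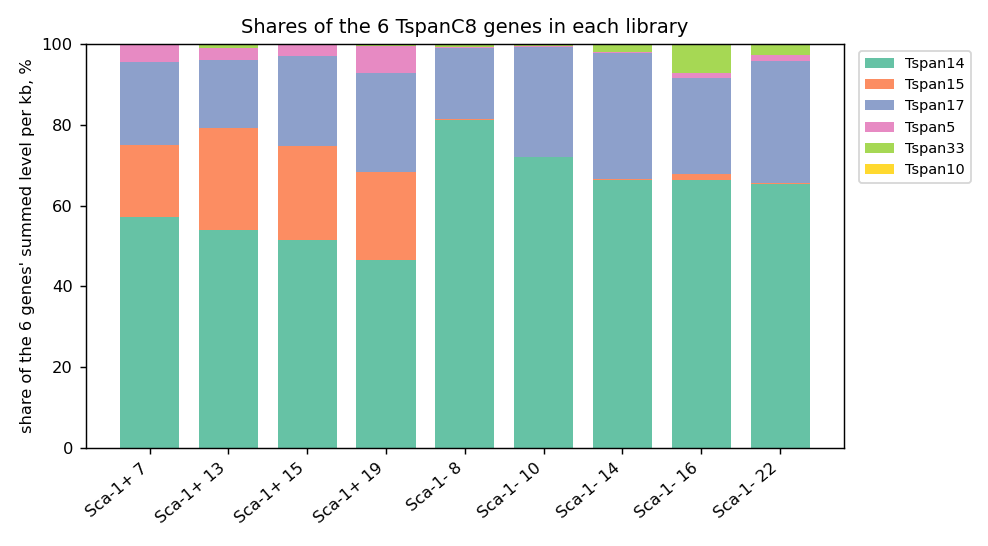
Share of each of the 6 TspanC8 genes in their summed level per kb of exon, in percent (vertical axis), for each of the 9 libraries (horizontal axis). Tspan14 is the largest part of every bar, and the Tspan15 part of 17.8% to 25.2% in Sca-1+ libraries is at most 1.51% in Sca-1- libraries.

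Tspan15, known to direct ADAM10 to N-cadherin, was counted at 226, 234, 300 and 175 CPM in Sca-1+ libraries and at 3.48, 0.0698, 6.66, 13.1 and 4.64 CPM in Sca-1- libraries. The fractions did not overlap, and the lowest Sca-1- value rested on 1 count in library 10. Its log2 fold change came to 5.37 (SE 0.85, adjusted p = 0.00065), and 5 without that library. Tspan5, a member linked to Notch signalling, was at 49.5, 25.5, 31.7 and 49.2 CPM in Sca-1+ and at 5.65, 3.98, 3.78, 9.13 and 16.2 CPM in Sca-1- libraries. All of its Sca-1+ values were above its Sca-1- values, with a log2 fold change of 2.32 (SE 0.46, adjusted p = 0.0023).

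The other TspanC8 genes were lower in Sca-1+ ECs. Tspan33, first described in red cell precursors, was at 0.75, 5.28, 2.35 and 2.21 CPM in Sca-1+ libraries and at 15.9, 21.7, 21.5, 39.5 and 24.2 CPM in Sca-1- libraries, without overlap (log2 fold change -3.21, SE 0.54, adjusted p = 0.00094). Tspan14 was at 236, 163, 215 and 120 CPM and at 818, 1200, 405, 186 and 280 CPM, so that library 16 fell inside the Sca-1+ range. Tspan17 was at 53, 31.7, 58 and 39.7 CPM and at 111, 285, 120, 41.6 and 81.1 CPM, again with library 16 inside that range. Their log2 fold changes were -1.65 (SE 0.53, adjusted p = 0.028) and -1.49 (SE 0.49, adjusted p = 0.030). Both calls were narrow. That of Tspan14 was lost without Sca-1+ library 13, 15 or 19 or Sca-1- library 8 (adjusted p = 0.073, 0.058, 0.079 and 0.051), and that of Tspan17 without Sca-1+ library 7, 13, 15 or 19 (adjusted p = 0.059, 0.085, 0.052 and 0.077). Libraries 15 and 16 share a further number in their titles, and with that number as a block both calls were lost (adjusted p = 0.059 for Tspan14 and 0.066 for Tspan17). Tspan10, the sixth of the group, had 28 counts in Sca-1- library 14 and 0 elsewhere, a count that allows up to 0.0996 to 0.209 CPM per library (3 counts, for counting error only).

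Adam10 itself was at 178 to 234 CPM in Sca-1+ and at 234 to 703 CPM in Sca-1- libraries (log2 fold change -1.04, adjusted p = 0.032; 0.011 to 0.090 with each library left out in turn, 0.054 with libraries 15 and 16 as a block and 0.11 with the title word as a term). For every Adam10 count there were 0.826 to 1.31 counts of Tspan15 in Sca-1+ libraries, and in Sca-1- libraries 0.0558 at most. This ratio was not adjusted for gene length and does not compare the levels of the genes. The same ratio for Tspan14 was 0.570 to 1.02 and 0.713 to 1.70, and its ranges overlapped. Of the proteins that ADAM10 is known to cut, the Notch receptors Notch1 and Notch4 (log2 fold changes 3.33 and 5.88, adjusted p = 0.00086 and 4.2e-05) and Cdh5, which encodes VE-cadherin (5.20, adjusted p = 2.6e-05), were higher in Sca-1+ ECs. Cd44, an adhesion receptor for hyaluronan, was lower (-4.67, adjusted p = 2.0e-04). Gp6, the platelet collagen receptor, was at 0 to 0.375 CPM in Sca-1+ and 131 to 925 CPM in Sca-1- libraries. Adam17, a related protease that does not depend on these tetraspanins, was at 76.9 to 114 and 43.3 to 77.3 CPM (log2 fold change 0.78, adjusted p = 0.018; 0.018 to 0.088 with each library left out in turn, and 0.10 with the title word as a term).

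Partners of receptors and channels of ECs and platelets included the member that varied least among the Sca-1+ libraries. Tspan12 (ENSMUSG00000029669, chromosome 6 from 21771395 to 21852515), which helps Frizzled 4 answer the ligand Norrin in retinal vessels, was at 356, 353, 361 and 375 CPM in Sca-1+ libraries. In Sca-1- libraries it was at 14.7, 15.3, 24.3, 25.1 and 22.4 CPM. Within either fraction the values were close together, with a highest to lowest ratio of 1.06 and 1.71. The log2 fold change of Tspan12 was 4.15 (SE 0.24, adjusted p = 6.3e-06). The receptor Fzd4 was at 83.7 to 118 CPM in Sca-1+ and 0.489 to 11.7 CPM in Sca-1- libraries (log2 fold change 4.53, adjusted p = 0.00055), and its co-receptors Lrp5 and Lrp6 had log2 fold changes of 3.05 and 1.42 (adjusted p = 0.0014 and 0.0013). In Sca-1+ libraries there were 3.02 to 4.21 counts of Tspan12 for every Fzd4 count. In Sca-1- libraries there were 2.15 to 31.3, a range that overlapped, and Fzd4 had only 7 counts in library 10. The gene of Norrin, Ndp, did not pass the filter.

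Tspan18, the partner of ORAI1 in ECs, was at 260, 166, 190 and 123 CPM in Sca-1+ libraries and at 162, 263, 67.6, 45.1 and 51.1 CPM in Sca-1- libraries. Library 8 lay inside and library 10 just above the Sca-1+ range, while the other Sca-1- libraries were below it. Its log2 fold change was 0.65 (SE 0.52, adjusted p = 0.34), and 1.33 (adjusted p = 0.014) with library size as the only scaling. Orai1 was at 48.6 to 72.3 and 96.5 to 492 CPM (log2 fold change -1.82, adjusted p = 0.014, and 0.056 with the title word as a term). Tspan9, which is abundant on platelets and lies near GPVI there, was at 159, 83.6, 127 and 107 CPM and at 757, 907, 226, 120 and 178 CPM. Its highest Sca-1- values were again those of libraries 8 and 10, and library 16 lay inside the Sca-1+ range. The log2 fold change was -1.88 (SE 0.61, adjusted p = 0.030), and the call was lost without Sca-1+ library 13, 15 or 19 (adjusted p = 0.081, 0.068 and 0.074) or Sca-1- library 8 or 10 (0.057 and 0.056), and also with libraries 15 and 16 as a block (0.061).

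Leukocyte tetraspanins were low in Sca-1+ ECs, at 4.61 CPM or less in every library. Tspan32 (ENSMUSG00000000244), a hematopoietic member that supports integrin signalling in platelets, was counted at 1.16, 1.6, 1.97 and 2.44 CPM in Sca-1+ libraries and at 287, 332, 415, 243 and 389 CPM in Sca-1- libraries. These were 34 to 63 counts against 4756 to 9791 counts, with no overlap. Its log2 fold change of -7.54 (SE 0.36, adjusted p = 3.3e-06) had the largest size in the family. Cd37 (ENSMUSG00000030798, chromosome 7 from 45233632 to 45239115), best known on B cells, was at 1.94, 1.43, 0.967 and 3.17 CPM and at 60.3, 62.0, 76.9, 104 and 69.4 CPM. Both genes varied little among the Sca-1- libraries, with a highest to lowest ratio of 1.71 for Tspan32 and 1.73 for Cd37. The log2 fold change of Cd37 was -5.31 (SE 0.41, adjusted p = 1.8e-05).

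Cd53 (ENSMUSG00000040747, chromosome 3 from 106759921 to 106790149), a pan-leukocyte member, was uneven. Its levels were 1.77, 0.0341, 0.276 and 4.61 CPM in Sca-1+ libraries, from 1 count in library 13 to 119 counts in library 19, and 18.0, 20.1, 55.6, 236 and 21.5 CPM in Sca-1- libraries. Library 16, the highest, also held the most basophil and mast cell marker RNA, and library 19 the most neutrophil marker RNA of the Sca-1+ fraction. The log2 fold change of -5.40 (SE 1.35, adjusted p = 0.0082) was -4.12 without Sca-1- library 16 and -6.65 without Sca-1+ library 19. The summed level of the 12 general leukocyte markers, 6.11 to 75.3 CPM against 1980 to 3890 CPM, moved the same way as these genes.

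Cd63, the tetraspanin of late endosomes that also marks the storage granules of ECs, platelets and basophils, was at 222, 179, 203 and 112 CPM in Sca-1+ libraries. In Sca-1- libraries it was at 153, 83.3, 139, 346 and 76.8 CPM. Only library 16 was above the Sca-1+ range, and the log2 fold change of 0.17 (SE 0.44, adjusted p = 0.78) took either sign when libraries were left out. Of its partners, Selp, which encodes P-selectin, was at 320 to 523 and 113 to 422 CPM (adjusted p = 0.14). Sdcbp, which encodes syntenin, was at 1270 to 1470 and 1260 to 4200 CPM (adjusted p = 0.068). Pdcd6ip, which encodes the exosome protein ALIX, was lower in Sca-1+ ECs by a log2 fold change of -1.51 (adjusted p = 0.0044).

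Members without a well-known partner on these cells made up most of the genes higher in Sca-1+ ECs. Tspan7 (ENSMUSG00000058254, chromosome X from 10485158 to 10596605), best known in neurons, was at 651, 1410, 1010 and 1500 CPM in Sca-1+ libraries. In Sca-1- libraries it was at 11.2, 3.63, 10.4, 51.7 and 28.5 CPM. The fractions were far apart, although each was spread. Tspan7 had a log2 fold change of 5.76 (SE 0.75, adjusted p = 0.00023), and 6.40 without Sca-1- library 16. Tspan13 (ENSMUSG00000020577) was at 681, 1310, 907 and 1570 CPM and at 215, 232, 364, 315 and 360 CPM (log2 fold change 1.91, SE 0.31, adjusted p = 0.00072). Its Sca-1+ libraries stood in the same order as for Tspan7, with 13 and 19 above 7 and 15.

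Tspan4, a marker of the migrasomes that crawling cells leave behind, was at 299, 323, 330 and 250 CPM in Sca-1+ and 27.9, 39.2, 68.0, 58.3 and 89.9 CPM in Sca-1- libraries (log2 fold change 2.41, SE 0.33, adjusted p = 0.00027). Tspan3 was at 270, 249, 234 and 166 CPM and at 102, 31.1, 52.2, 67.3 and 72.1 CPM (log2 fold change 1.82, SE 0.32, adjusted p = 0.0012). Tspan6, like Tspan7 on the X chromosome, was at 91.9, 104, 91.9 and 108 CPM and at 21.1, 20.8, 27.4, 21.7 and 31.0 CPM (log2 fold change 2.02, SE 0.19, adjusted p = 4.4e-05). None of the 3 genes overlapped between the fractions, and Tspan6 was tight in both. Tspan31 was at 215, 220, 213 and 173 CPM and at 87.0, 60.1, 89.6, 89.0 and 79.9 CPM (log2 fold change 1.34, SE 0.19, adjusted p = 0.00034). It shares 641 of its 2193 exon bases with Cdk4 on the opposite strand and is therefore uncertain, and Cdk4 was at 166 to 242 CPM in Sca-1+ and 124 to 286 CPM in Sca-1- libraries.

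Of the other members, Tspan2, known from oligodendrocytes, was lower in Sca-1+ ECs, at 37.4, 52.7, 62.0 and 81.3 CPM against 319, 388, 103, 71.8 and 126 CPM. Library 16 overlapped the Sca-1+ range, and the log2 fold change of -1.79 (SE 0.52, adjusted p = 0.018) lost its call without Sca-1+ library 7 (adjusted p = 0.055). Tspan8, an epithelial and tumour member, was at 5.96 to 7.04 CPM and 4.39 to 16.2 CPM (log2 fold change -0.44, SE 0.41, adjusted p = 0.40). Tspan11 reached 1.70 CPM at most (log2 fold change 0.18, SE 1.16, adjusted p = 0.91), and its sign changed when libraries were left out. The urothelial genes Upk1a and Upk1b and the epithelial gene Tspan1 failed the filter. Upk1a had 5 to 27 counts in Sca-1+ libraries and 13 or fewer in Sca-1- libraries, Upk1b had 41 and 19 counts in Sca-1+ libraries 7 and 15 and 7 in Sca-1- library 8, and Tspan1 had 9 counts in Sca-1+ library 19 and 1 in Sca-1- library 10.

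**Figure D4:**
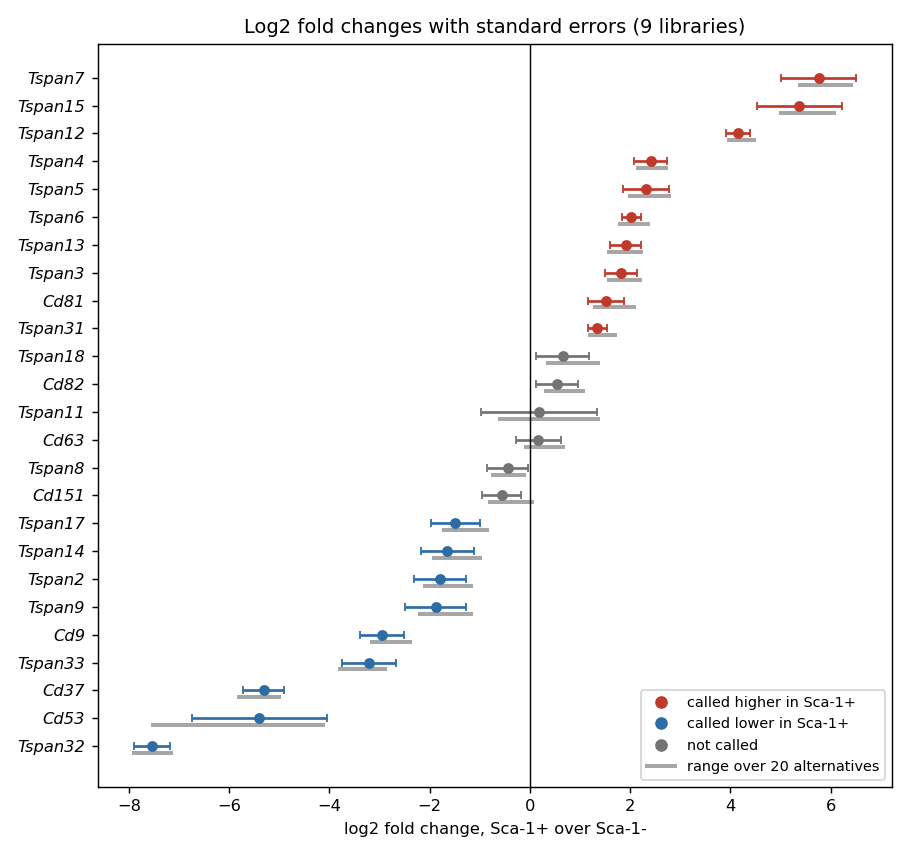
Log2 fold change of Sca-1+ over Sca-1- libraries (horizontal axis) for the 25 tested tetraspanins (vertical axis), as points with bars of 1 SE by edgeR, over 9 libraries. Grey lines give the range over the 21 alternative settings; Cd53 has the widest range, from -7.51 to -4.12, and the ranges of Cd63, Tspan11 and Cd151 cross 0.

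Several members lie close to each other in the genome. On chromosome 7, Cd151 (141467392 to 141471473, GRCm38) ends 3.8 kb before Tspan4 (141475240 to 141493427), with 1 protein-coding gene annotated between them, and the ratio of Tspan4 to Cd151 counts was 4.03 to 4.98 in Sca-1+ and 0.199 to 1.81 in Sca-1- libraries. Tspan32 (143005046 to 143019644) ends 33.1 kb before Cd81 (143052739 to 143067934) on the same chromosome, with no protein-coding gene between them. Their calls were opposite, with 0.000482 to 0.00121 counts of Tspan32 for every Cd81 count in Sca-1+ libraries and 0.211 to 0.743 in Sca-1- libraries. These ratios are taken within a library and do not depend on the scaling between libraries. On chromosome 2, Tspan18 (93201760 to 93334505) and Cd82 (93419111 to 93463140) lie 84.6 kb apart with no protein-coding gene between them. Neither was called, and the ratio of their counts was 2.32 to 4.02 in Sca-1+ and 0.464 to 12.1 in Sca-1- libraries, which overlapped. On chromosome 6, Tspan11 and Tspan9 lie 7.4 kb apart, again with no protein-coding gene between them, and had log2 fold changes of 0.18 (not called, at 1.70 CPM or less) and -1.88. Exons of 9 of the 25 tested members share bases with a gene on the opposite strand (Tspan31, Tspan2, Tspan12, Cd9, Cd37, Cd151, Tspan4, Tspan32 and Cd81), from 13 bases in Cd37 to 641 in Tspan31, so that their counts are uncertain to that extent.

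Within the Sca-1- libraries the members varied in different ways, some of them nearly in the order of a cell marker sum. The summed megakaryocyte markers were highest in libraries 10 and 8 and lowest in library 16, a range of 4.33-fold in CPM. In counts the sum fell in the same order, from 1706921 in library 10 to 828555 in library 16. TMM factors rose in that order, from 0.581 in library 10 to 1.16 in library 16, so that scaling widened the range in CPM. Cd9, Tspan14, Tspan2, Tspan9 and Cd151 stood in nearly that order in CPM, and Cd9 was at 93915 to 158426 counts. For every 1000 counts of megakaryocyte markers, Cd9 was counted 86.9 to 113 times, a range of 1.30-fold where its CPM ranged 3.32-fold. Tspan14 gave 6.77 to 10 counts (1.48-fold, against 6.42-fold in CPM), and Cd151 1.43-fold against 3.45-fold. Of the 9 members lower in Sca-1+ ECs, 5 (Tspan17, Tspan14, Tspan2, Cd9 and Tspan9) had a narrower range relative to megakaryocyte than to endothelial markers in these 5 libraries. The other 4 (Cd53, Tspan33, Cd37 and Tspan32) had a narrower range relative to endothelial markers, although for Tspan32 the ranges were close, at 3.63-fold and 3.31-fold. Of the 10 members higher in Sca-1+ ECs, 9 were narrower relative to endothelial markers and Cd81 to megakaryocyte markers (1.79-fold against 5.87-fold). The endothelial sum ranged 2.42-fold in CPM, less than the megakaryocyte sum, so a gene of even CPM comes out narrower against the endothelial sum. Tspan6, Tspan31, Tspan13, Cd37 and Tspan32 ranged less in CPM alone (1.49-fold, 1.49-fold, 1.69-fold, 1.73-fold and 1.71-fold) than relative to endothelial markers. The share over all genes was not computed, so these numbers of members do not show that a member follows either marker set. Tspan12 gave 25.4 to 42.9 counts for every 1000 endothelial marker counts in Sca-1- libraries and 20.7 to 28.4 in Sca-1+ libraries. Tspan7 gave 10.2 to 59.9 there and 37.8 to 114 in Sca-1+ libraries. Each point shares its library and depth with the marker sum beside it, and these ranges are a description without a test.

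**Figure D5:**
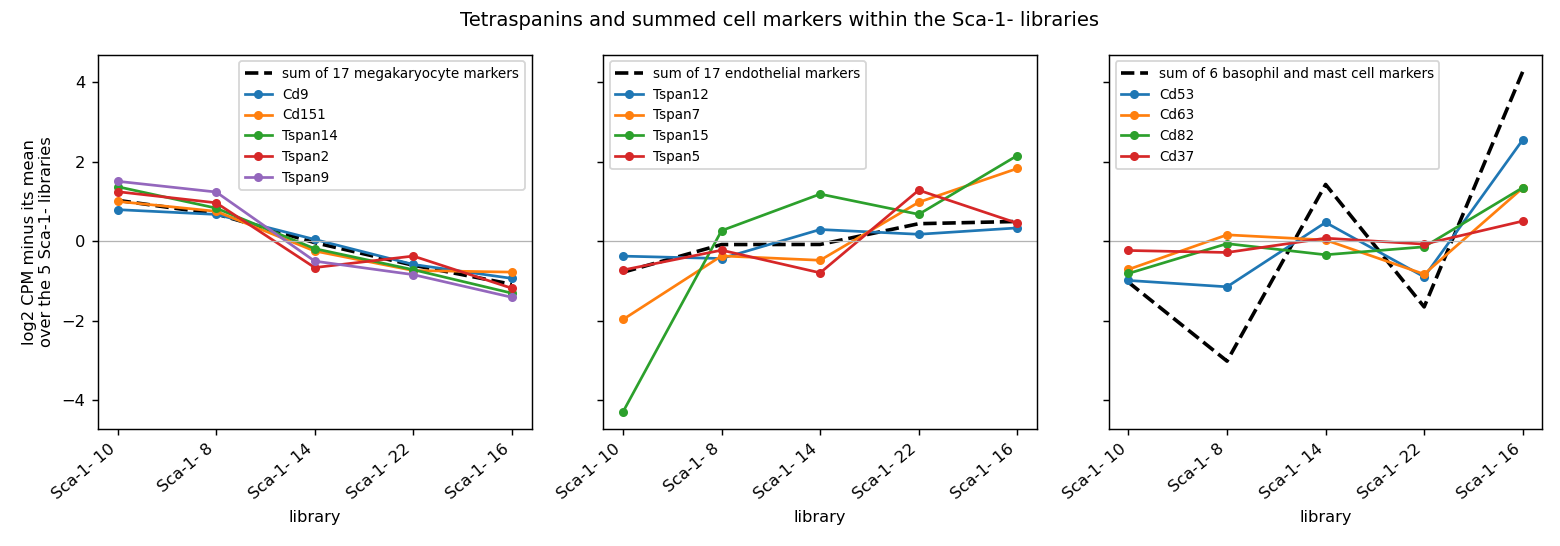
Tetraspanins beside summed cell markers in the 5 Sca-1- libraries, as log2 CPM minus its mean over these libraries (vertical axis), with libraries ordered by the megakaryocyte marker sum (horizontal axis). The TMM factors of the libraries rise in the same order and enter every line. Dashed lines are sums of 17 megakaryocyte, 17 endothelial and 6 basophil and mast cell markers, and coloured lines are single tetraspanins chosen after their values were seen; Cd9 and Cd151 lie close to the megakaryocyte line, Tspan12 close to the endothelial line, and Cd53, Cd63 and Cd82 are highest in library 16, where the basophil and mast cell sum is highest.

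In Sca-1+ libraries, where the megakaryocyte markers summed to 46.8 to 97.7 CPM, Cd9, Tspan14 and Tspan9 were at 850 ± 54.5, 183 ± 51.9 and 119 ± 32.1 CPM (SD, n = 4). The platelet integrin chain Itga2b was at 9.87 to 11.7 CPM there and at 5540 to 23300 CPM in Sca-1- libraries.

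Of the 42 genes listed as partners or cleaved targets of tetraspanins, 36 were tested, of which 15 lay above and 11 below in Sca-1+ ECs, beside 23.3% and 21.4% of all genes tested. The median log2 fold change of the list was 0.77, beside 0.07 over all genes tested. Icam1 and Vcam1, adhesion receptors of ECs that gather in tetraspanin patches, were higher. Icam1 was at 1030 to 1540 CPM in Sca-1+ and 11.2 to 51.2 CPM in Sca-1- libraries, and Vcam1 at 301 to 374 and 2.02 to 30.6 CPM. F11r, also in the list, was at 571 to 658 and 148 to 606 CPM and was not called (edgeR, adjusted p = 0.11). Hbegf, a growth factor precursor that binds CD9, was at 230 to 368 and 3.14 to 21.1 CPM, so that it and Cd9 lay in opposite directions. Platelet receptors were lower, with Itgb3 at 3.98 to 6.44 and 511 to 3170 CPM and Clec1b at 1.12 to 5.69 and 1020 to 5390 CPM.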

How the data were processed

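RNA-seq of CD45-Ter119-CD31+ BM cells, labelled as ECs, from wt B6 mice was analysed in 4 Sca-1+ and 5 Sca-1- libraries, grouped by their labels. RNA was taken from sorted cells, and libraries were made from 2 ng of total RNA with a full-length poly(A) cDNA kit without molecular identifiers, so that counts include PCR copies and floors cover counting error only. The authors deposited whole-number read counts per gene, not normalized, for all 9 libraries, and every sample column was used. The submitters' processing notes name STAR, featureCounts and build mm10. Their versions, the annotation release and the use of strand are not given in the sources used here.

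The analysis used edgeR 4.0.16 under R 4.3.3. Low genes were removed with filterByExpr at its defaults (minimum count 10, minimum total 15), which left 15937 of the 26424 genes with at least 1 count. Libraries were scaled by TMM, and the fractions were compared by the two-sided F-test of the quasi-likelihood fit. P-values were adjusted over all tested genes after Benjamini and Hochberg, and calls were made under 0.05. The common dispersion was 0.301. Levels are CPM on TMM-scaled library sizes, log2 CPM used a prior count of 2, and a library at 3 counts or fewer was taken as at the floor. Levels of different genes were compared per kb of exon, from GENCODE M21 on GRCm38, which held 45143 of the 46078 deposited genes and all 29 members. Ratios of counts between genes within a library were not adjusted for length. Libraries of the same fraction differed by a chi-square of at least 36.8 per degree of freedom, so none was a copy of another.

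The members, the role groups, the partner list and the marker lists were chosen with earlier results of these data known, and were written by hand from general knowledge. The rule for genes named in the text takes every member, the listed partners of the members described, and defining markers. Ly6a, Pecam1 and Ptprc as genes of the sort, genes named for an exon overlap, and the members drawn beside cell markers were added after values were seen. Alternatives changed the scaling, the filter, the test (DESeq2 1.42.0, voom from limma 3.58.1), the weighting, the blocking, the libraries included or, as a term chosen after seeing the data, the title words CD452 and wt. Promoter letters were searched in the 250 bases before the RefSeq start. Python 3.11.15 with matplotlib 3.10.9 drew the plots.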

Additional observations from a re-analysis of the deposited data

Results flagged for a closer look

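A library stood apart from the rest of its fraction, by its gap to the nearest library relative to the whole range, in 3 of the 72 sets of values examined, and chance alone gives about 1 in 20 such sets. Tspan31 was at 7.43 log2 CPM in Sca-1+ library 19 and at 7.73 to 7.78 in the other Sca-1+ libraries. Tspan31 was also at 5.91 log2 CPM in Sca-1- library 10 and at 6.32 to 6.49 in the other Sca-1- libraries, and its exons share bases with Cdk4. The summed B and plasma cell markers were at 5.55 (log2 of the summed CPM) in Sca-1+ library 19 and at 0.77 to 0.96 in the other Sca-1+ libraries. The causes were not tested.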

How the results depend on the processing

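Over 21 alternatives, 479 of 525 log2 fold changes of single tetraspanins kept their direction and their side of the threshold, 32 lost and 4 gained a call and 10 changed sign. Of the 19 called members, 15 kept their call throughout, while Tspan9, Tspan17, Tspan14 and Tspan2 lost it in 11, 9, 8 and 4 alternatives. With each library left out in turn, 10 to 11 members were higher and 6 to 9 lower, and 14 to 16 partners were higher and 9 to 13 lower.

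No replicate number is shared by the fractions in the labels. Libraries numbered in sequence (7 with 8, 13 with 14 and 15 with 16) deviated together with correlations of 0.147, 0.148 and 0.042. Other combinations of a Sca-1+ and a Sca-1- library had -0.191 to 0.065, so that 7 with 8 and 13 with 14 were above all of them. The correlations therefore do not exclude pairs. The labels do not say whether these numbers mark pairs, and the main test left the libraries unpaired. With these numbers as a replicate block, 11 members were higher and 5 lower, and without blocks the same 6 libraries also gave 5 lower. With only libraries 15 and 16, which share a further number in their labels, as a replicate block, 10 were higher and 6 lower, and Tspan14, Tspan17, Tspan9 and the partner Adam10 lost their calls. With the title words CD452 and wt as a term over 8 libraries, an alternative chosen after seeing the data, 10 were higher and 5 lower, and Tspan11 had -0.23.

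In these alternatives the changes of sign were confined to 3 members not called. Cd151 had a log2 fold change of 0.04 with library size alone. Cd63 had -0.08 in those 6 libraries without blocks, -0.06 without Sca-1- library 10 and -0.02 without Sca-1- library 22, and up to 0.66 with another library left out. Tspan11 had -0.59 in the 6 libraries, -0.27 without Sca-1+ library 19, -0.20 and -0.22 without Sca-1- libraries 10 and 14, up to 0.53 with another library left out, and -0.46 without libraries 19, 10 and 16 together, an alternative chosen after seeing the data. Library size alone moved the median of all genes by 0.35 (log2), with 11 members higher and 8 lower, and RLE scaling by -0.09. The cause of these changes was not tested. At 3 counts a library could show 0.0996 to 0.209 CPM, which limits a member only in libraries where it had 3 counts or fewer.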
